A study of Mus musculus with 8 samples.

Results

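The genes described here are 44 mouse genes of inflammatory signalling: cytokines, chemokines, the receptors and adaptor that sense them or microbial products, NF-kB subunits and inhibitors, adhesion molecules and a pair of inducible enzymes. They were chosen by gene symbol, with no measured value in the rule, and all 44 had at least 1 of the 62 probes that carry their names on the array. Cxcl10 and its receptor, the Nlrp3 inflammasome and interferon-stimulated genes are not among them. The livers came from male C57BL/6J mice fed a high-fat diet for 3 months, 4 wild type (WT) and 4 lacking miR-223 (miR-223KO). No chow-fed group was analysed here, so both groups share the diet, and the labels do not say in which cells or with which allele miR-223 was removed, or whether each sample is 1 mouse. If samples were pooled or split, the p-values speak only of how far these 8 samples scatter. Each array carried liver RNA in Cy5 and a purchased mixed-tissue mouse RNA in Cy3, and the measure was the log2 ratio of liver to that common reference. The question was whether these genes differ between livers with and without miR-223.

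Cytokines such as Tnf and Il1a, and microbial products sensed by Tlr2 and Tlr4, act through receptors and adaptors such as Tnfrsf1a and Myd88 to free NF-kB dimers from their inhibitors. Dimers of Rela with Nfkb1 then enter the nucleus and switch on chemokine, cytokine and adhesion genes, along with Nfkbia and Tnfaip3, which close the loop by shutting NF-kB off again. In a fatty liver these signals come from Kupffer cells, incoming monocytes and neutrophils, endothelium, stellate cells and hepatocytes, so an array of whole liver averages over all of them. In such bulk samples, fewer cells of a type and less RNA per cell cannot be told apart. miR-223 is a microRNA abundant in neutrophils and other myeloid cells that lowers its targets through short sites matching its seed.

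The group labels name the microRNA, so its mature strands are given first, from RefSeq, with the seed (bases 2 to 8) in capitals.
mmu-miR-223-3p: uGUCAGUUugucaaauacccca
mmu-miR-223-5p: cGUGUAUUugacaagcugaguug
The DNA letters complementary to the 3p seed, AACTGAC, occurred in 150 of the 40554 probes with a deposited sequence (0.37%) and in 1 of the 62 probes of the genes described here, that for Ccl3. The first 30 bases of that probe are printed because they hold the match, in capitals.
Ccl3 probe, bases 1 to 30: catgAACTGACaaatgtacaatagatgctt
A probe covers 60 bases of a transcript, so these letters say nothing about sites elsewhere in these genes, and Ccl3 itself was well above background on only 1 of the 8 arrays. Several of the genes belong to families of related proteins, but their probes did not resemble each other: over 1869 pairs of probes for different genes, the closest pair shared 29 of 60 bases in its best ungapped alignment, and the longest shared run was 13 bases.

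NF-kB controls many of these genes, and 3 upstream stretches are shown to let a reader see such an element. They belong to a chemokine that was measured, its neighbour that was not, and the inhibitor with the widest scatter among the genes described here. Each is 150 bases ending at the base before the RefSeq start (GRCm38.p6, read 5′ to 3′ on the gene's strand), with matches to the NF-kB consensus on either strand in capitals. Overlapping matches run together in 1 block of capitals.
Cxcl1, chr5:90891095-90891244, plus strand: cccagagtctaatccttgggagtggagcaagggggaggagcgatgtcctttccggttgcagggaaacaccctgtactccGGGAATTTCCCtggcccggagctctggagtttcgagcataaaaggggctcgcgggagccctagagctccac
Cxcl2, chr5:90903749-90903898, plus strand: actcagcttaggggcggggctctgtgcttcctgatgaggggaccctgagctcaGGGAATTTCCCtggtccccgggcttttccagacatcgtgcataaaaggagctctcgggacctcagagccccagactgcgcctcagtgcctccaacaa
Nfkbia, chr12:55492648-55492797, minus strand: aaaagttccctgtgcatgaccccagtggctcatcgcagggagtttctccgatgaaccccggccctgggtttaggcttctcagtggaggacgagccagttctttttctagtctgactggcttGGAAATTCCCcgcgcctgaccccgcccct
RefSeq promoters (250 bases before to 50 after the start) were matched by symbol for 29 of the 44 genes. The consensus lay in that window in 9 of these 29: Ccl9, Csf1, Cxcl1, Cxcl2, Il6, Nfkb2, Nfkbia, Tlr2 and Tnfaip3. Over all genes in the table it lay in 1388 of 27025 (5.14%). Nfkb2, Tlr2 and Tnfaip3 held 2 or more separate stretches.

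Sensitivity differed between the arrays. Of 43379 spots for genes and other targets, between 49.5% (WT replicate 4) and 69.8% (WT replicate 2) were well above background in Cy5 by the scanner software's own flag, and none was saturated in either channel. Slides 1 and 2 each carried 4 of the arrays, with replicates 1 and 2 of both genotypes on slide 1 and replicates 3 and 4 on slide 2. The labelled tissue was plain in the hepatocyte markers: Alb, which encodes serum albumin, and Apoa1, the main protein of high-density lipoprotein, averaged 185096 and 53664 units of Cy5 intensity. Averaged over the unflagged readings of the marker genes tested (4 of 9), the hepatocyte log2 ratio ran from 0.774 to 1.89 in WT livers. In miR-223KO livers it ran from 0.44 to 0.759, so the groups were apart only by a narrow step. Of the 4 genes 0 passed the test, and the bright markers Cyp2e1, Ass1, Cps1 and Tat were not tested. An array with a flagged marker was averaged over the others. The groups overlapped in every other cell type list averaged. The same average for 7 of 9 monocyte and macrophage markers ran from -0.52 to 0.22 in WT and from -0.058 to 0.66 in miR-223KO livers, and for 8 of 9 Kupffer cell markers from -0.40 to 0.63 and from -0.20 to 0.33. The part of these marker levels in the values of single genes was not tested. Probes of the 29 genes that could be tested averaged 96.6 to 1470.8 units, over a local background of 53.3 units on average.

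Detection set what could be compared. In all, 29 genes had a probe well above background in Cy5 on at least 4 of the 8 arrays and at least 3 unflagged readings a group, 19 of them on all 8 arrays. The other 15 did not reach that, and 12 of them were well above background on no array: the cytokines Il6, Il12b and Csf3, the chemokines Ccl4, Ccl8, Ccl12, Ccl22, Cxcl2 and Cxcl13, the endothelial selectin Sele, and the enzymes Ptgs2 and Nos2, which make prostaglandins and nitric oxide. For 9 of the 15 genes the reference RNA gave no array above background either, so for these the array offers no positive signal in this study. Il6, a cytokine that drives the acute-phase response of hepatocytes, gave Cy5 intensities of 83.0, 74.0, 63.5 and 58.2 in WT replicates 1 to 4 and 71.4, 61.5, 66.8 and 76.9 in miR-223KO replicates 1 to 4. These overlap in full and sit near the local background. Its log2 ratios, from -0.081 to 0.098, therefore carry no order.

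The remaining 3 genes were above background on 1 array each. Ccl3, a chemokine for macrophages and other leukocytes, was above background in 1 miR-223KO liver and so was Tlr4, the receptor for bacterial lipopolysaccharide. Tlr4's brighter probe read 111.9, 84.0, 68.4 and 62.3 units in the WT livers and 93.2, 71.9, 82.0 and 89.2 in the miR-223KO livers, groups that overlap. With 1 of 4 miR-223KO livers above background and 0 of 4 WT livers, no fold is given for either gene. Cxcl5, a neutrophil chemokine, was above background only in WT replicate 2, with 320.0 units against 45.0 to 63.0 on the other 7 arrays. The scanner software flagged that spot, which was left out, so no usable reading of Cxcl5 was above background.

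None of the 29 genes tested passed the test between miR-223KO and WT livers. The test was limma's moderated linear model over all 16755 genes and unnamed probes measured, two-sided, with Benjamini-Hochberg adjustment at 0.05, and it called 2 of the 16755 (0.0119%). At an unadjusted p under 0.05 the count among the 29 was also 0, against 784 of 16755 (4.68%). Of the 29 differences, 12 were above 0 and 17 below, with a median of -0.051 on the log2 scale beside -0.0095 over everything tested. The smallest unadjusted p was 0.119, for Ccl6, and the smallest adjusted p in limma was 0.98. Groups did not overlap for 2 of the 29, Csf1 and Nfkb1, beside 518 of 16755 (3.09%) over all.

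How large a difference these data leave room for can be read from the intervals. For 27 of the 29 genes (93.1%) the 95% interval lay inside a 2-fold change either way, close to the 95.6% of everything tested. The exceptions were Relb, with an interval of -0.38 to 1.12, and Nfkbia, with -1.27 to 0.71. These intervals stand on a scale with 50 units added after background correction, which draws ratios of dim probes towards 0. With 16 units added 26 genes met the same limit, and on the authors' deposited log2 ratios 24 did.

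**Figure D1:**
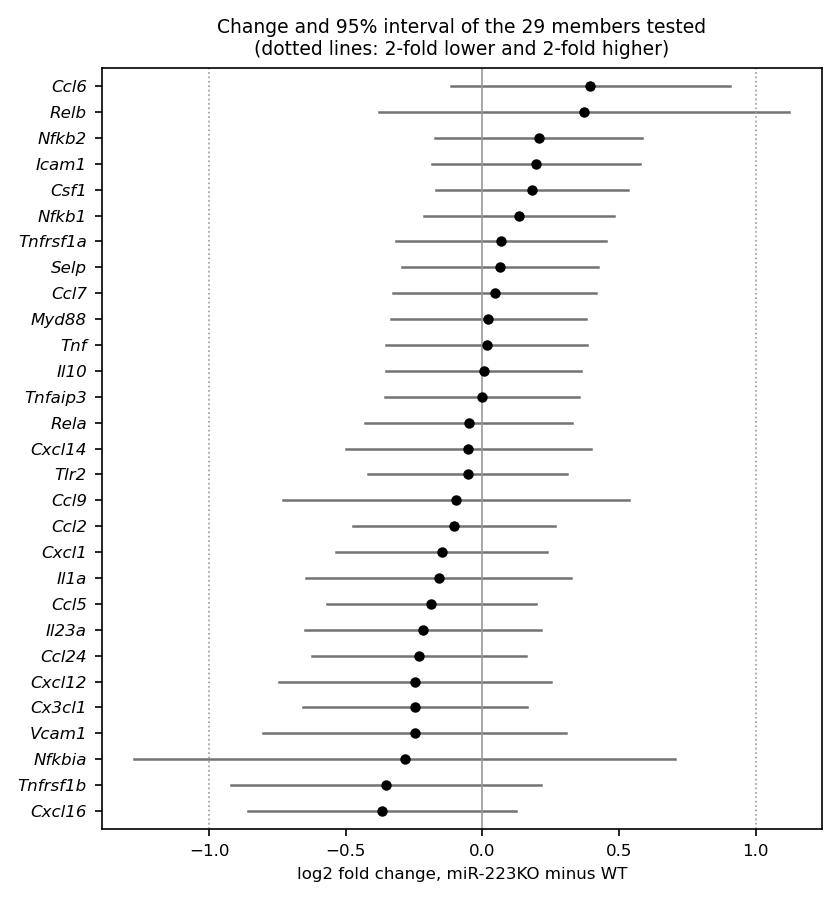
Difference in mean log2 ratio, miR-223KO minus WT (x axis), for the 29 genes tested (y axis, ordered by value), with 95% intervals from limma as bars and 2-fold limits as dotted lines. Every interval crosses 0, from Cxcl16 at -0.37 to Ccl6 at 0.40, and only those of Relb and Nfkbia pass a 2-fold limit.

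Of the 8 cytokines, 5 were tested, 3 with differences above 0 and 2 below, and a median of 0.0039. Tnf, the founding cytokine of the pathway, had log2 ratios of -0.28, -0.032, 0.057 and -0.19 in WT replicates 1 to 4 and -0.17, -0.19, -0.093 and 0.068 in miR-223KO replicates 1 to 4. The groups overlapped along most of their range, and the difference was 0.016 ± 0.17 (SE, n = 4 a group). Il1a, an alarm cytokine released by dying cells, read 0.77, -0.0023, 0.72 and 0.45 in WT replicates 1 to 4 and 0.79, -0.14, 0.30 and 0.35 in miR-223KO replicates 1 to 4. Its scatter within a group, from -0.0023 to 0.77 in WT, was wider than the difference of -0.16 ± 0.23. That difference became -0.0035 without miR-223KO replicate 2 and -0.32 when WT replicate 2 was dropped. Il23a, which encodes the p19 subunit of the cytokine IL-23, read -0.011, 0.27, 0.74 and 0.46 in WT replicates 1 to 4 and 0.10, 0.039, -0.049 and 0.49 in miR-223KO replicates 1 to 4. WT replicate 3 was the highest of the 8, and the difference was -0.22 ± 0.20. Il10, the anti-inflammatory cytokine, averaged 0.043 ± 0.14 in WT and 0.047 ± 0.044 in miR-223KO livers (SD, n = 4).

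Csf1 was a gene whose groups did not overlap. It encodes the growth factor on which monocytes and macrophages depend, and it read -0.16, -0.078, 0.013 and -0.088 in WT replicates 1 to 4 and 0.17, 0.080, 0.038 and 0.12 in miR-223KO replicates 1 to 4. All 4 miR-223KO livers lay above all 4 WT livers, with a difference of 0.18 ± 0.17, or 1.13-fold. The difference was 0.25 on slide 1 and 0.12 on slide 2. Its moderated SE is larger than its own spread would give (SD 0.073 and 0.056, n = 4), because limma draws each gene's spread towards that of the other genes. Csf1 was above background in 3 WT and 4 miR-223KO livers.

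Of the 11 CC chemokines, 6 were tested, 2 with differences above 0 and 4 below (median -0.10). Ccl6, a macrophage chemokine that also marks other myeloid cells in mice, had the largest difference of the 29 genes in either direction. It read -0.36, -0.74, 0.29 and -0.80 in WT replicates 1 to 4 and -0.16, -0.074, 0.41 and -0.20 in miR-223KO replicates 1 to 4. WT replicate 3 sat with the miR-223KO livers, and the other WT livers lay below all 4 of them. The difference was 0.40 ± 0.24, or 1.32-fold, and it was 0.43 on slide 1 and 0.36 on slide 2. Leaving out single arrays, it ran from 0.26 without miR-223KO replicate 3 to 0.63 without WT replicate 3, with unadjusted p of 0.315 and 0.0111 and an adjusted p of 0.982 for the second in limma.

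Ccl24, an eosinophil chemokine that resident macrophages also make, read 0.33, 0.31, -0.19 and 0.17 in WT replicates 1 to 4 and -0.25, -0.14, 0.0024 and 0.090 in miR-223KO replicates 1 to 4. The groups were apart on slide 1 and mixed on slide 2, with differences of -0.52 and 0.056, and the value over all arrays was -0.23 ± 0.18. Ccl5, which attracts T cells and monocytes, read 0.10, -0.25, 0.17 and -0.22 in WT replicates 1 to 4 and -0.058, -0.24, -0.31 and -0.34 in miR-223KO replicates 1 to 4. WT replicates 2 and 4 lay among the miR-223KO livers, and the difference was -0.19 ± 0.18. Ccl2, the main chemokine for monocytes that carry Ccr2, read 0.056, 0.17, 0.35 and 0.11 in WT replicates 1 to 4 and 0.21, 0.049, -0.15 and 0.16 in miR-223KO replicates 1 to 4. Replicates 2 and 3 of miR-223KO lay below all WT livers and the others among them, and the difference was -0.10 ± 0.17. Ccl7, a monocyte chemokine encoded near Ccl2, and Ccl9, another macrophage chemokine, differed by 0.045 ± 0.18 and -0.097 ± 0.30. Ccl9 ran in opposite directions on the slides, 0.49 on slide 1 and -0.68 on slide 2, with miR-223KO replicate 3 at -1.17.

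**Figure D2:**
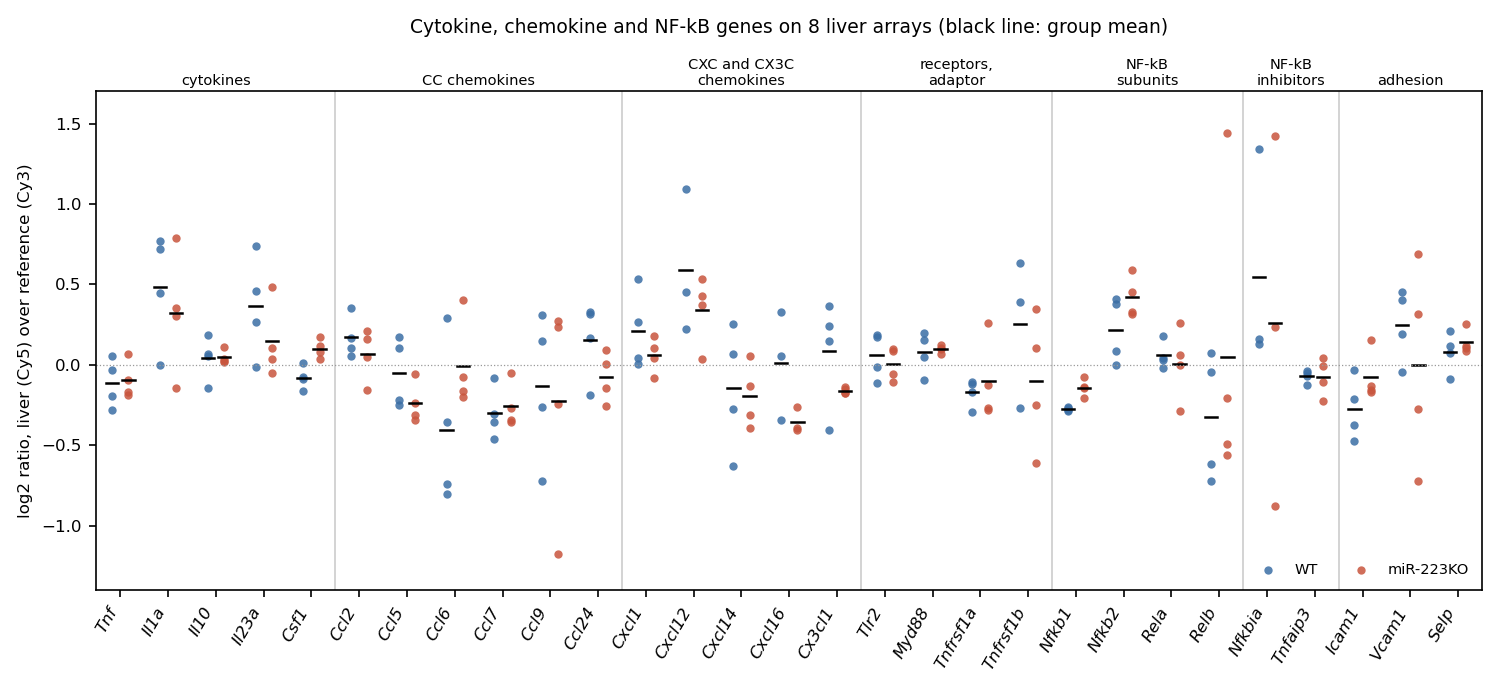
Log2 ratio of liver (Cy5) to reference (Cy3) RNA (y axis) on each of the 8 arrays for the 29 genes tested (x axis, grouped by role), WT in blue and miR-223KO in red, with group means as black lines. The groups overlap for all but Csf1 and Nfkb1, and single arrays stand far out for Relb, at 1.44, and for Nfkbia, at 1.34 and 1.42.

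The 5 CXC and CX3C chemokines tested, of 8, had differences below 0 in all 5 cases, with a median of -0.25 and a range from -0.37 to -0.051. None of the 5 passed the test. That shared sign was seen only after the values were known and rests on 1 probe a gene. It was not kept under every choice: Cxcl16 was at 0.055 as the mean of its probes, Cxcl12 at 0.0055 without WT replicate 1 and Cxcl14 at 0.081 without WT replicate 2.

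Cxcl16 is made by macrophages and endothelium both as a membrane scavenger receptor and as a shed chemokine for T and NKT cells. The reading of replicate 1 was flagged by the scanner software in both groups and left out (0.76 in WT and 0.20 in miR-223KO). The rest were 0.056, -0.34 and 0.33 in WT replicates 2 to 4 and -0.26, -0.41 and -0.39 in miR-223KO replicates 2 to 4. The 3 miR-223KO readings kept were close together, with the flagged one above them. WT replicate 3 lay among the 3 kept, for a difference of -0.37 ± 0.23 (n = 3 a group), or 0.77-fold. Without WT replicate 4 it was -0.21, and without WT replicate 3 it was -0.55. Cx3cl1, the membrane-bound ligand of Cx3cr1, read 0.15, 0.24, 0.36 and -0.41 in WT replicates 1 to 4 and -0.18, -0.18, -0.15 and -0.14 in miR-223KO replicates 1 to 4. Its miR-223KO livers were nearly identical while WT replicate 4 lay below all of them, and the difference was -0.25 ± 0.19. It was -0.16 without WT replicate 3 and -0.41 without WT replicate 4, with unadjusted p of 0.462 and 0.0401 and an adjusted p of 0.962 for the second in limma.

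Cxcl12, the chemokine that holds haematopoietic cells in their niche, had a flagged reading in WT replicate 2. The others were 1.10, 0.22 and 0.45 in WT replicates 1, 3 and 4 and 0.43, 0.54, 0.034 and 0.37 in miR-223KO replicates 1 to 4. WT replicate 1 stood highest and miR-223KO replicate 3 lowest, with a difference of -0.25 ± 0.23 (n = 3 WT and 4 miR-223KO) that was 0.0055 without WT replicate 1. A brighter probe of Cxcl12 (mean Cy5 2965.7 against 1202.1 units) was not tested, because its readings in miR-223KO replicates 1 and 2 were flagged. With flagged spots kept, Cxcl12 was read from that probe, at -0.041. Cxcl1, a neutrophil chemokine read through Cxcr2, gave 0.0050, 0.53, 0.26 and 0.044 in WT replicates 1 to 4 and -0.082, 0.18, 0.10 and 0.045 in miR-223KO replicates 1 to 4. WT replicate 2 was highest, the groups overlapped, and the difference was -0.15 ± 0.18. Without WT replicate 2 it was -0.042. Cxcl14, an epithelial chemokine, averaged -0.15 ± 0.39 in WT and -0.20 ± 0.20 in miR-223KO livers (SD, n = 4).

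Receptors and the adaptor showed differences on both sides of 0. Of 5 genes, 4 were tested, with 2 above and 2 below and a median of -0.016. Tlr2, which senses bacterial lipoproteins, read -0.11, -0.014, 0.17 and 0.19 in WT replicates 1 to 4 and 0.10, -0.058, 0.084 and -0.11 in miR-223KO replicates 1 to 4. The groups overlapped, and the difference was -0.054 ± 0.17. Myd88, the adaptor that Toll-like receptors and the IL-1 receptor share, read 0.16, 0.20, -0.093 and 0.051 in WT replicates 1 to 4 and 0.11, 0.10, 0.069 and 0.12 in miR-223KO replicates 1 to 4. The miR-223KO livers lay inside the WT range throughout, and the difference was 0.022 ± 0.17. Tnfrsf1b, the TNF receptor found mainly on immune and endothelial cells, had a flagged reading in WT replicate 1. Its other readings were 0.39, 0.63 and -0.27 in WT replicates 2 to 4 and -0.25, 0.10, 0.35 and -0.61 in miR-223KO replicates 1 to 4. Replicate 4 was the lowest of each group, and the difference was -0.35 ± 0.27. It was -0.16 without WT replicate 3, -0.18 without miR-223KO replicate 4 and -0.61 when WT replicate 4 was dropped, with unadjusted p of 0.585, 0.50 and 0.0416 and an adjusted p of 0.962 for the last in limma. Tnfrsf1a, the TNF receptor found on most cells, averaged -0.17 ± 0.083 in WT and -0.10 ± 0.25 in miR-223KO livers (SD, n = 4).

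All 4 NF-kB subunits were tested, 3 with differences above 0 and Rela below, for a median of 0.17. Nfkb1 encodes p105, the precursor of the p50 subunit, and read -0.27, -0.28, -0.26 and -0.29 in WT replicates 1 to 4 and -0.14, -0.21, -0.14 and -0.077 in miR-223KO replicates 1 to 4. The 4 WT livers were nearly equal (SD 0.011), and every miR-223KO liver lay above them. The difference was 0.13 ± 0.16, or 1.10-fold, and was 0.10 on slide 1 and 0.17 on slide 2. The probe was above background in 2 WT and 4 miR-223KO livers, so it entered the test mainly through the group in which it was brighter. Its spread between arrays of a group was under that of nearly everything else tested (SD 0.038), and limma's moderation raises such a low spread towards that of the other genes.

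Nfkb2, which encodes the precursor of p52 in the alternative NF-kB pathway, read -0.0034, 0.38, 0.083 and 0.41 in WT replicates 1 to 4 and 0.32, 0.45, 0.59 and 0.33 in miR-223KO replicates 1 to 4. The miR-223KO livers held the upper part of a shared range, and the difference was 0.21 ± 0.18. Rela, the p65 subunit that carries the activation domain, read -0.017, 0.18, 0.043 and 0.030 in WT replicates 1 to 4 and -0.0018, 0.059, 0.26 and -0.28 in miR-223KO replicates 1 to 4. Its highest and lowest values were both miR-223KO livers, and the difference was -0.050 ± 0.18. Relb, the partner of p52, read -0.62, -0.72, -0.045 and 0.075 in WT replicates 1 to 4 and -0.56, -0.49, -0.21 and 1.44 in miR-223KO replicates 1 to 4. A single array, miR-223KO replicate 4, set the difference of 0.37 ± 0.35: without it the value was -0.092.

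Both inhibitors were tested and both differences were below 0. Nfkbia encodes IkB-alpha, which holds NF-kB in the cytoplasm and is made anew after each activation. Flagged readings of WT replicate 4 (0.35) and miR-223KO replicate 3 (0.38) were left out, and the others were 0.13, 0.16 and 1.34 in WT replicates 1, 2 and 3 and 0.24, -0.88 and 1.42 in miR-223KO replicates 1, 2 and 4. The highest livers came from both groups, at 1.34 in WT and 1.42 in miR-223KO, and the lowest, at -0.88, was miR-223KO replicate 2. The difference of -0.28 ± 0.46 (n = 3 a group) was smaller than its SE, and it ran from -0.87 to 0.28 as single arrays were left out. The spread between arrays of a group (SD 0.95) was at the 99.9th percentile of everything tested, and that of Relb (SD 0.72) at the 99.5th. Tnfaip3, the ubiquitin-editing enzyme A20 that ends NF-kB signalling, averaged -0.070 ± 0.040 in WT and -0.074 ± 0.12 in miR-223KO livers (SD, n = 4).

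Nfkbia was measured by a single probe, printed here because the widest scatter among the genes described here rests on it.
Nfkbia probe: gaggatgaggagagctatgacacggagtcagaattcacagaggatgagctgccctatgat
Its mean Cy5 intensity was 1470.8 units, and the part of signal level in the scatter was not tested.

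Of the 4 adhesion molecules, 3 were tested, 2 with differences above 0 and 1 below. Icam1, which binds integrins on leukocytes, read -0.38, -0.47, -0.032 and -0.21 in WT replicates 1 to 4 and 0.15, -0.16, -0.13 and -0.17 in miR-223KO replicates 1 to 4. The miR-223KO livers lay in the upper part of the WT range, with replicate 1 above it, and the difference was 0.20 ± 0.18. It came from slide 1, at 0.42, while slide 2 gave -0.027. Vcam1, the ligand of the integrin made by Itga4 and Itgb1, read -0.045, 0.19, 0.45 and 0.40 in WT replicates 1 to 4 and 0.69, -0.72, -0.28 and 0.32 in miR-223KO replicates 1 to 4. The miR-223KO livers lay on both sides of the whole WT range, and the difference was -0.25 ± 0.26. It was -0.0073 without miR-223KO replicate 2 and -0.48 without miR-223KO replicate 1. Selp, the selectin that platelets and endothelium store, averaged 0.079 ± 0.13 in WT and 0.14 ± 0.076 in miR-223KO livers (SD, n = 4).

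The precision differed with how often a gene was printed on the array. Of the 29 tested probes 10 were spotted 10 times and 19 once. The SD between arrays of a group ran from 0.038 to 0.19 (median 0.12) for the first and from 0.088 to 0.95 (median 0.28) for the second. The same held over all genes, with medians of 0.15 for 136 probes spotted 10 times and 0.29 for 16619 spotted once. Tnf, Il10, Csf1, Ccl2, Tlr2, Myd88, Tnfrsf1a, Nfkb1, Icam1 and Selp are the 10.

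Where a gene had more than 1 measured probe, the probes often differed in sign. Of 9 such genes 7 had differences on both sides of 0 (77.8%), beside 2817 of 5155 named genes (54.6%). Cxcl16 gave -0.37 from its brighter probe and 0.23 from the other, although both were above background on all 8 arrays. Its brighter probe is printed to show which stretch gave the value described above.
Cxcl16, brighter probe: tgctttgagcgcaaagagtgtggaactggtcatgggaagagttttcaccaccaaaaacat
Ccl24 gave -0.23 and 0.15, Ccl5 -0.19 and 0.29, Tnfrsf1b -0.35 and 0.11, Vcam1 -0.25 and 0.26, and Rela -0.050 and 0.082. Nfkb1 gave 0.13, 0.10 and -0.024 from 3 probes. Icam1, at 0.20 and 0.31, and Selp, at 0.063 and 0.22, kept 1 sign. In the authors' deposited table the same probes of Nfkb1 (0.46, 0.94 and 0.45) and Rela (0.014 and 0.075) were all above 0. Those of Ccl5, Ccl24, Cxcl16, Tnfrsf1b and Vcam1 differed in sign there too. No pair of probes for the same gene shared 15 or more bases in a run, so each pair reads separate parts of a transcript.

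**Figure D3:**
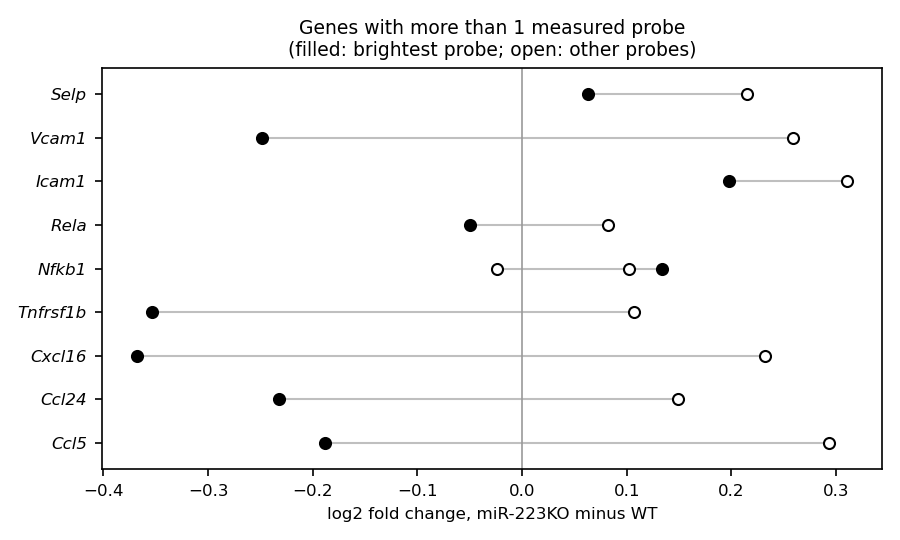
Difference in mean log2 ratio, miR-223KO minus WT (x axis), for each measured probe of the 9 genes with more than 1 (y axis), filled for the brightest probe and open for the others. The line at 0 falls between probes of the same gene for 7 of the 9, as for Vcam1 at -0.25 and 0.26, and outside them for Icam1 and Selp.

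The authors' deposited table holds its own log2 fold change for all 62 probes. The large ones fell mostly on probes that were not above background on all 8 arrays. Of 15 probes above background on no array, 4 passed 0.5 in size there, as did 2 of 7 probes above it on 1 to 3 arrays, 4 of 16 on 4 to 7 arrays and 1 of 24 on all 8 arrays. Over all probes of the table the shares were 17.9%, 32.8%, 26.7% and 8.52%. The 4 on 4 to 7 arrays were less bright probes of Ccl5 (0.74), Nfkb1 (0.94), Icam1 (0.53) and Selp (1.18). Here these probes differed by 0.29, 0.10, 0.31 and 0.22. Ccl8, a monocyte chemokine, is listed at -1.48 in the authors' deposited table and Ccl4, a close relative of Ccl3, at 0.90, and neither was above background on any array. After background correction with an added 50 units, the same probes differed by -0.22 and 0.17. The second probe of Selp is at 1.18 in the authors' deposited table and that of Ccl7 at -1.10, against 0.22 and -0.012 here, on 5 arrays and 1 array above background. The probe above background throughout with the largest value in the authors' deposited table was that of Ccl6, at 0.65.

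**Figure D4:**
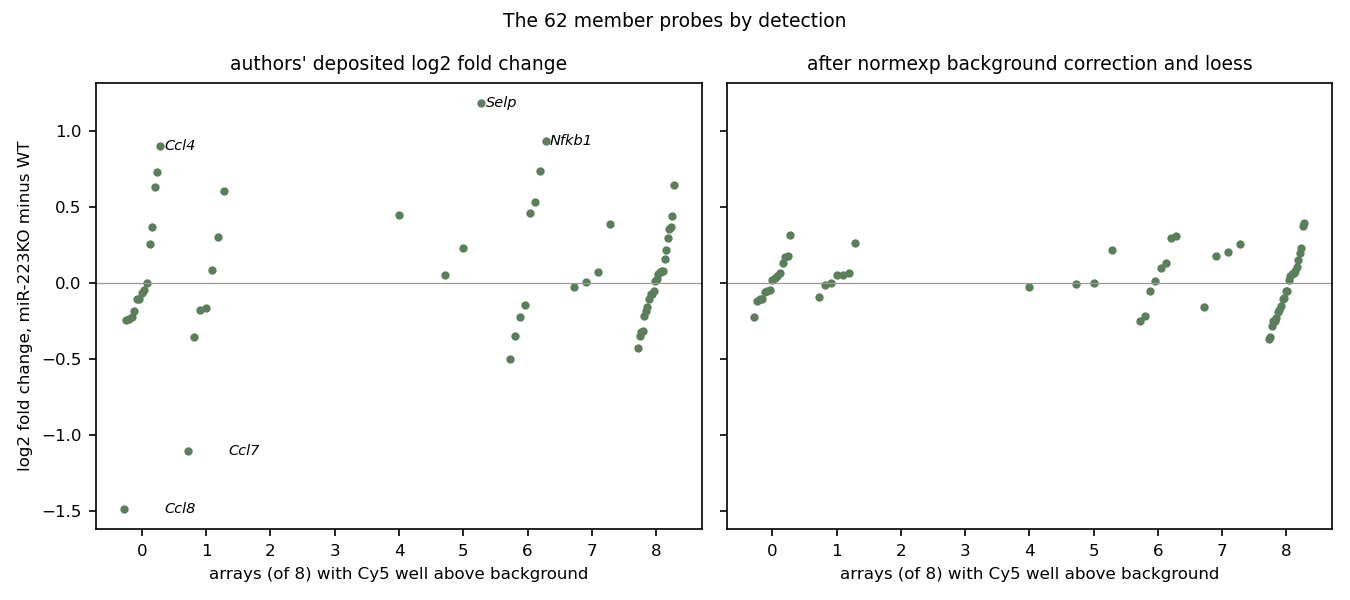
Log2 fold change, miR-223KO minus WT (y axis), of the 62 probes against the number of arrays with Cy5 well above background (x axis, points spread sideways for legibility), in the authors' deposited table (left) and after normexp background correction and loess (right). On the left the points furthest from 0 belong to Ccl8 at -1.48, Selp at 1.18 and Ccl7 at -1.10, and on the right no probe passes 0.40.

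Genes that carry these signals onward gave no calls either. Of 32 further NF-kB pathway genes (mainly kinases, adaptors and inhibitors, with the subunit Rel) 28 were tested, Rel not among them. Of these, 17 differences were above 0 and 11 below, and 0 passed the test. Those with the smallest unadjusted p were Traf6, a ubiquitin ligase below Myd88, at 0.29 ± 0.19 (SE), and Tab2, which links it to the kinase Map3k7, at -0.30 ± 0.21. A further list of 11 genes held Toll-like receptors together with Ly96 and Lbp. Only Tlr3, Tlr5, Ly96 and Lbp, 4 of the 11, were tested, with 0 calls, and Tlr12 and Tlr13 were not on the array. Tlr5, the flagellin receptor, differed by 0.25 ± 0.24 and Tlr3, the receptor for double-stranded RNA, by -0.086 ± 0.20. Tlr3 was above background in 1 WT and 3 miR-223KO livers.

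Receptors for the chemokines were measured for 9 of 18 genes, 5 above 0 and 4 below, with 0 calls. Ackr1, a receptor that takes up chemokines without signalling, differed by 0.35 ± 0.21.

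Of 19 cytokine receptors and leukocyte integrins 15 were tested, 9 above 0 and 6 below, with 0 calls. Csf1r, the receptor of Csf1, read -0.44, 0.065, 0.44 and 0.17 in WT replicates 1 to 4 and 0.69, 0.45, 0.72 and 0.52 in miR-223KO replicates 1 to 4. All 4 miR-223KO livers lay above all 4 WT livers, and the difference was 0.54 ± 0.20, with an unadjusted p of 0.0173 and an adjusted p of 0.98 in limma. Il10ra, the ligand-binding chain of the IL-10 receptor, differed by 0.26 ± 0.18 and was above background in 2 WT and 4 miR-223KO livers. Ligand and receptor therefore both had groups that did not overlap for Csf1 and Csf1r, a pair picked out here after the values were seen. Neither passed the test, and over everything tested the groups did not overlap for 518 of 16755 (3.09%).

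Across whole livers, the arrays of the 2 groups spanned overlapping ranges in these genes. WT replicate 1 held the lowest value for 8 of the 29, and each other array for 1 to 5. The median log2 ratio of the 29 ran from -0.067 to 0.083 over the WT arrays and from -0.058 to 0.045 over the miR-223KO arrays. The number of the 62 probes above background ran from 28 to 43 in WT and from 30 to 42 in miR-223KO livers. Of 25 genes with a value on both slides, 15 had the same sign of difference on each.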

How the data were processed

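Two-colour Agilent arrays (60-base probes) measured liver RNA (Cy5) against a mixed-tissue reference (Cy3) in 4 WT and 4 miR-223KO livers. Per the file headers, spot intensities were extracted with Feature Extraction 12.0.3.1. The authors also deposited a table of log2 ratios per array with their log2 fold changes, whose normalization is not given in the sources used here. Here median signals and local background were corrected by normexp (offset 50) and loess-normalised within each array in limma 3.58.1 (R 4.3.3), with controls at weight 0 and flagged spots left out. Spots of a probe were averaged, and each gene was read from its brightest tested probe. The test was limma's lmFit and eBayes over 14695 genes and 2060 unnamed probes, threshold 0.05 after Benjamini-Hochberg adjustment, checked on simulated data. The number of arrays, 4 a group, limits the precision. The genes and lists were chosen with earlier results of these data known. Arrays are given for the 12 tested genes with the smallest unadjusted p, those whose groups do not overlap and 16 fixed genes; other genes by group mean, and in pathway lists the 2 with the smallest p. Not every gene that this rule names is reported here. Alternatives covered offset, normalization, filters, flags, probe choice, trend, slide, replicate number, single arrays and the deposited ratios.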

Additional observations from a re-analysis of the deposited data

Results flagged for a closer look

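In 1 of 52 groups of 4 readings, a single liver lay far from the other livers of its group. Icam1 read 0.15 in miR-223KO replicate 1 and -0.17 to -0.13 in the other 3 miR-223KO livers, so that the gap to the nearest was 0.872 of the group's range, above Dixon's critical value of 0.829. Chance gives such a gap in about 5% of groups.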

How the results depend on the processing

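No gene of the 29 was called in any of the 22 alternatives (smallest adjusted p 0.676), and the unadjusted count under 0.05 was 0 except within slide 1 (1), without WT replicate 3 (2), without WT replicate 4 (2) and, among 44 genes of the deposited ratios without a detection filter, 1: Ccl8 at -1.48 (unadjusted p 0.00958, limma). The count over everything tested was 2, and it became 4 with an offset of 16, 1 with the deposited ratios (with or without the filter), with median centring and with the mean of a gene's probes, 0 within slide 1 and 0 within slide 2. The median of the 29 became 0.045 with median centring (12 above and 17 below 0 became 20 above and 9 below, while 63.9% of everything tested was above 0 in place of 48.3%) and 0.0054 with the mean of a gene's probes (16 above and 13 below, 48.4% of everything above 0). Over all measured probes of the 29 genes, each on its own, it was 0.016. Single genes changed sign as follows, and the cause was not tested beyond what is named. Offset 16 gave Tnf -0.0035, and keeping flagged spots Tnf -0.0013. The deposited ratios gave Cxcl12 0.028 through its other probe (-0.071 in the authors' deposited table for the probe described), Rela 0.014, Tnf -0.14 and Tnfaip3 0.23. The mean of probes gave Ccl5 0.053, Cxcl16 0.055, Rela 0.016 and Vcam1 0.0054. Median centring, which puts the median of everything at 0.081, gave Ccl2 0.017, Ccl5 0.052, Ccl9 0.079, Cxcl12 0.011, Cxcl16 0.045, Il10 -0.023, Il1a 0.015, Rela 0.14, Tlr2 0.065 and Tnfrsf1b 0.047, of which those other than Il10 and Rela stayed below that median. Within slide 1 Ccl2 was 0.017, Ccl9 0.49, Myd88 -0.074, Tlr2 0.085, Tnf -0.024, Tnfaip3 0.076 and Tnfrsf1a -0.081, and within slide 2 Ccl24 was 0.056, Ccl7 -0.13 and Icam1 -0.027. Leaving out single arrays gave Ccl7 from -0.022 to 0.12, Ccl9 from -0.30 to 0.22, Cxcl12 from -0.43 to 0.0055, Cxcl14 from -0.21 to 0.081, Il10 from -0.057 to 0.052, Myd88 from -0.036 to 0.062, Nfkbia from -0.87 to 0.28, Rela from -0.13 to 0.047, Relb from -0.092 to 0.57, Tnf from -0.040 to 0.072, Tnfaip3 from -0.042 to 0.047 and Tnfrsf1a from -0.053 to 0.13. Same-numbered arrays did not deviate together (correlations from -0.027 to 0.059), and with the replicate number as a block 0 of the 29 genes and 2 of everything tested were called. Ccl6, Csf1, Cx3cl1, Cxcl1, Il23a, Nfkb1, Nfkb2 and Selp kept their sign in every alternative that measured them. In the fit of each probe on its own, that sign was read from the brightest probe only. Another measured probe of Nfkb1 was at -0.024. The intensity trend alters only the spread, so it could not change a sign. Signal over background leaves 15 of the 44 genes without a tested value.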
